A study of Mus musculus with 12 samples.

Results

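The 39 genes described here encode the junctions, keratins and cytoskeleton of epithelial cells, and they were followed in primary mouse hepatocytes in which Cebpa was deleted or added. They were taken by symbol from a list of names, and all 39 were found among the 55450 genes of the tables. They fall into 8 groups by role: 9 tight junction genes, 2 cadherins of the adherens junction, 3 connexins of the gap junction, 3 desmosome genes, 3 keratins, 8 actin, myosin and actin-binding genes, 4 tubulins and 7 annexin and S100 genes. RNA-Seq was done in 12 libraries, 3 in each of 4 groups. WT hepatocytes carried the genotype Cebpafl/fl, with floxed alleles and no deletion. KO hepatocytes were Cebpa{delta}Alb, in which Cre recombinase under the albumin promoter deletes the floxed alleles, so that the loss is limited to cells that use that promoter. Ad-GFP hepatocytes were given an adenovirus for green fluorescent protein, and Ad-m-Cebpa (Overexpression) hepatocytes an adenovirus for mouse Cebpa. The labels give no age, strain or sex, and no duration of virus exposure, and they call the libraries biological replicates without saying whether each came from its own mouse. The p values may therefore measure only the spread between preparations.

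Hepatocytes are polarised cells. Tight junctions seal the bile canaliculus that runs between neighbouring cells, cadherins and desmosomes hold the cells together from inside by actin and by keratin, and connexins form channels that join their cytoplasm. A simple keratin pair, Krt8 and Krt18, makes up the intermediate filaments of adult hepatocytes, while actin with nonmuscle myosin surrounds the canaliculus. Annexins bind membranes in the presence of calcium, and several of them pair with small S100 proteins. Isolated hepatocytes are known to flatten in culture.

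The total count per library was 20160081 to 23304230, and the 39 genes together accounted for 0.267% to 0.292% of it (WT), 0.259% to 0.313% (KO), 2.09% to 2.14% (Ad-GFP) and 1.05% to 1.09% (Ad-m-Cebpa). Cebpa itself was at 436 ± 63.1 (SD, n = 3) TMM-scaled counts per 1000000 counts (CPM) in WT, 0.723 ± 0.689 in KO, 32.3 ± 2.01 in Ad-GFP and 8731 ± 226 in Ad-m-Cebpa, so each library matched its label. The hepatocyte markers (10 genes, among them Alb, Ttr and Apoa1) summed to between 198200 and 269500 CPM in WT and KO, to 22670 to 23300 in Ad-GFP and to 8854 to 9359 in Ad-m-Cebpa. Alb alone had a mean of 4859 CPM in Ad-m-Cebpa. With added Cebpa 8 of the 10 were lower and 2 were higher. These 2 were Cps1, from 149 to 489.7 CPM, and Fgb, from 319.4 to 504.8 CPM. The leading 10 genes of a library held 19.1% to 23.3% of its counts in WT and KO and 5.07% to 8.03% in the virus-treated cultures. In bulk RNA, fewer cells of a type and less RNA per cell cannot be told apart. Replicates were closest in the virus-treated groups. Among members at 10 CPM or more, the median coefficient of variation was 10.5% in WT, 22.9% in KO, 2.63% in Ad-GFP and 3.20% in Ad-m-Cebpa.

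**Figure D1:**
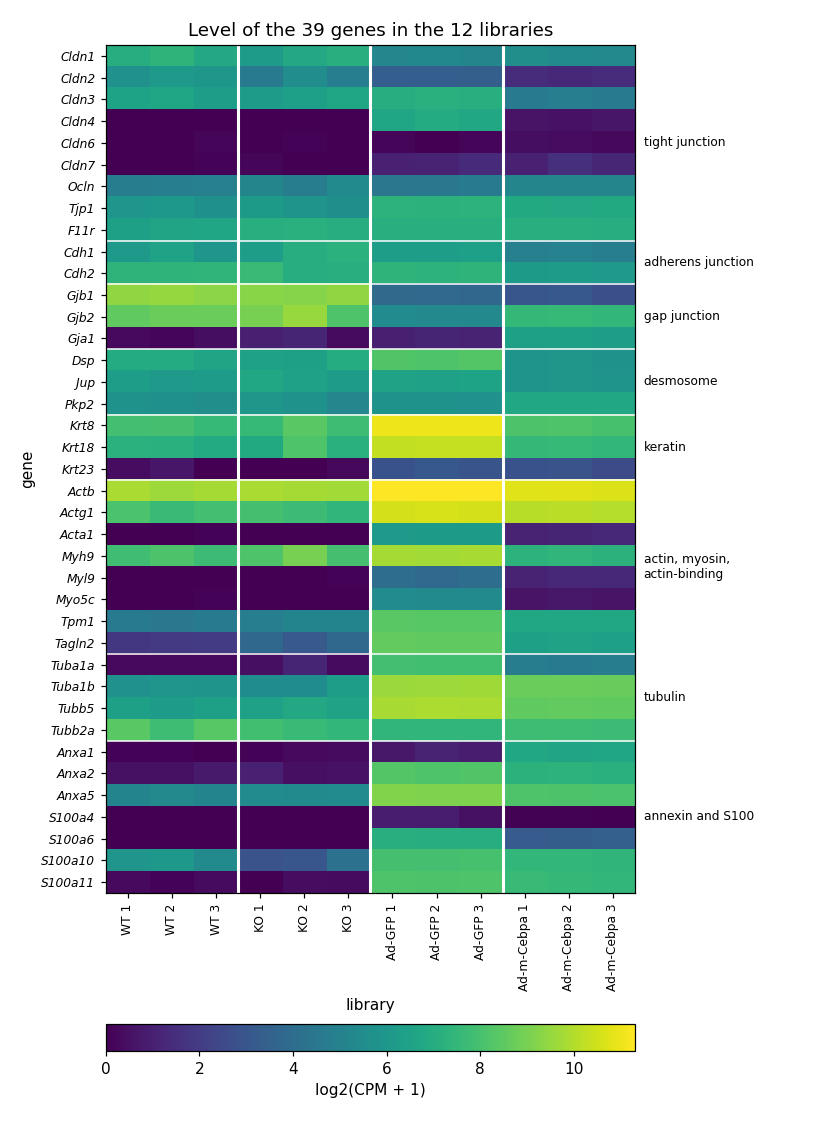
Level of each of the 39 genes (rows, by role) in each of the 12 libraries (columns), as log2(CPM + 1) by colour. The WT and KO columns look alike for most rows, Ad-GFP is the highest group by mean CPM for 25 of the 39 genes, and Gja1 and Anxa1 are bright only in the Ad-m-Cebpa columns.

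Per transcript length (TPM), Actb, a cytoplasmic actin, was the most abundant of the 39 in every group, at 473 ± 57.1 TPM in WT, 471 ± 12.03 in KO, 3431 ± 59.1 in Ad-GFP and 2905 ± 63.0 in Ad-m-Cebpa. What came next differed. In WT it was the connexin Gjb1 (Cx32), at 427 ± 14.99 TPM, which lay within 1 SD of Actb. In Ad-GFP it was the keratin pair, Krt8 at 2684 ± 56.5 and Krt18 at 2318 ± 46.4 TPM, and in Ad-m-Cebpa the second cytoplasmic actin, Actg1, at 1852 ± 21.9 TPM. All 39 genes summed to 2119 ± 128 TPM in WT, 2043 ± 165 in KO, 21610 ± 278 in Ad-GFP and 12690 ± 174 in Ad-m-Cebpa. TPM is not TMM-scaled. Between Ad-GFP and WT the median log2 difference over all genes tested was 1.33 on log2(TPM + 1), against 0.13 with TMM scaling. Part of the difference between these sums is therefore that shift.

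KO was compared with WT to find which of these genes depend on Cebpa in hepatocytes. Tagln2, which encodes the actin-binding protein transgelin 2, and F11r, which encodes the tight junction adhesion molecule JAM-A, rose in KO, and S100a10, the S100 partner of annexin A2, fell. No other member passed the test. 25 members were abundant enough to be tested, so 2 of 25 were called higher and 1 of 25 lower, where 0.692% of the 11854 genes tested were called higher and 1.02% lower (edgeR quasi-likelihood test, Benjamini-Hochberg adjusted p under 0.05). At an unadjusted p under 0.05 there were 8 members, and the median log2 fold change of the 25 was 0.04 against 0.01 over all genes tested. The biological coefficient of variation was 20.4%.

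Tagln2 (ENSMUSG00000026547.15, chromosome 1, 172500047 to 172507380, plus strand, mm10) had 2.59, 2.80 and 2.90 CPM in WT hepatocytes, and its KO values were 13.1, 7.86 and 12.9 CPM. All KO libraries lay above all WT libraries, and the log2 fold change was 2.04 ± 0.23 (SE; adjusted p = 0.0111). The call held in 11 of 14 alternative analyses. It was lost without any 1 of the WT libraries, with adjusted p values of 0.0756 without replicate 1, 0.0696 without replicate 2 and 0.0596 without replicate 3.

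S100a10 (chromosome 3, 93555080 to 93564643, plus strand, mm10) had 58.1, 63.5 and 41.8 CPM in WT hepatocytes, and its KO values were 6.51, 7.15 and 17.98 CPM. The groups did not overlap, and the gene fell by 2.35 ± 0.39 on the log2 scale (adjusted p = 0.0377). The call held in 8 of 15 alternatives. The adjusted p was 0.149, 0.140 and 0.0900 without WT replicate 1, 2 and 3, and 0.0875 and 0.109 without KO replicate 1 and 2. Its annexin partner Anxa2 was close to silent (0.410 to 0.741 CPM in WT, 0.393 to 1.06 in KO), so per transcript length S100a10 exceeded Anxa2 by 137 to 388 times in WT and by 15.5 to 99.4 times in KO. The 10 macrophage markers, in the same order of libraries, had sums of 4.75, 8.14 and 31.3 CPM for WT, and of 53.9, 62.6 and 17.5 for KO. In both groups the library with the extreme macrophage sum, replicate 3, also had the extreme S100a10 value. The match was not particular to macrophage markers. Replicate 3 was also highest in WT and lowest in KO for endothelial sums (37.6 and 23.9 CPM). The same held for stellate cell and fibroblast sums (16.4 and 22.5 CPM), but not for cholangiocyte sums. The neutrophil sums had that order too (229.8 and 1.37 CPM for replicate 3), but they were nearly all Lcn2. Without Lcn2 every neutrophil sum was near 0, at most 0.205 CPM (WT) or 0.786 CPM (KO). KO replicate 3 was then still lowest, but WT replicate 3 (0.202 CPM) no longer stood above WT replicate 2. The part of these markers in the result was not tested.

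F11r had WT values of 84.0, 94.8 and 99.9 CPM, and KO values of 138, 144 and 130. The groups did not overlap, but the difference was modest, at 0.58 ± 0.11 on the log2 scale, and the adjusted p of 0.0496 was just inside the threshold. The call held in 5 of 15 alternatives. Without WT replicate 1, 2 and 3 the adjusted p was 0.211, 0.190 and 0.116, and without KO replicate 1 and 2 it was 0.108 and 0.135.

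In the other groups the member with the lowest p did not pass. Cdh1, which encodes E-cadherin, had WT values of 69.2, 90.3 and 61.0 CPM, and KO values of 77.3, 131 and 146 (log2 fold change 0.70 ± 0.25, adjusted p = 0.285). Gjb2 (Cx26), the second connexin of hepatocytes, had WT values of 367, 439 and 431 CPM, and KO values of 511, 764 and 291 (0.36 ± 0.33, adjusted p = 0.647), so the KO libraries lay on both sides of WT. Jup, which encodes plakoglobin, a protein of both desmosomes and adherens junctions, had WT values of 76.7, 66.0 and 74.6 CPM, and KO values of 106, 87.7 and 72.5 (0.31 ± 0.15, adjusted p = 0.427).

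Krt18 had WT values of 146, 144 and 120 CPM, and KO values of 115, 293 and 143 (0.45 ± 0.34, adjusted p = 0.592), with 1 KO library, replicate 2, far above the rest. The same library was highest among the KO libraries for Krt8 (341 CPM against 190 and 221) and for Myh9, the heavy chain of nonmuscle myosin (513 against 294 and 247). Tubb2a, a beta-tubulin, had WT values of 344, 220 and 327 CPM, and KO values of 233, 197 and 178 (-0.54 ± 0.20, adjusted p = 0.288). Cldn2, the pore-forming claudin, had KO values of 24.6 to 45.3 CPM below the WT range of 52.3 to 67.9 CPM, with a log2 difference of -0.89 ± 0.25 (adjusted p = 0.166). It passed in 3 of 15 alternatives, one of them the fit without KO replicate 2 (adjusted p = 0.0263).

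The other 14 members could not be tested, because they were near or at 0 in WT and KO hepatocytes alike: Cldn4, Cldn6, Cldn7, Gja1, Krt23, Acta1, Myl9, Myo5c, Tuba1a, Anxa1, Anxa2, S100a4, S100a6 and S100a11. Their highest value in any of the 6 libraries was 1.26 CPM, for Gja1 and for Tuba1a in KO replicate 2. Cldn4, S100a4 and S100a6 had no count in any WT or KO library. In WT 3 counts over the group correspond to 0.0692 CPM, which is the level that a count of 0 allows, for counting error only.

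Some markers of other cells differed between KO and WT. By edgeR 3 of 4 tested cholangiocyte markers and 1 of 4 tested stellate cell and fibroblast markers were called. Of the tested endothelial and macrophage markers, 0 of 9 and 0 of 8 were called. The 10 cholangiocyte markers summed to 54.6 to 70.8 CPM (WT) and 608.5 to 812.5 CPM (KO), and the 9 without Spp1 to 47.5 to 52.6 and 93.8 to 128.5 CPM, with Sox9, Spp1 and Pkhd1 called higher. With limma on log2(TPM + 1) only Spp1 was called. Krt7 and Krt19, the keratins that define the bile duct epithelium, stayed at means of 0.0514 and 0.176 CPM in KO. The 11 stellate cell and fibroblast markers summed to 8.41 to 16.4 CPM (WT) and 22.5 to 33.1 CPM (KO), with Reln called higher by edgeR and DESeq2 but not by limma, and Acta2 was at 0 in both. The 9 endothelial markers summed to 23.4 to 37.6 CPM (WT) and 23.9 to 54.5 CPM (KO), with none called by edgeR (1 at an unadjusted p under 0.05) and 1, Lyve1, by DESeq2. The 10 macrophage markers summed to 4.75 to 31.3 CPM (WT) and 17.5 to 62.6 CPM (KO). None of them was called by edgeR or DESeq2, with 2 and 7 at an unadjusted p under 0.05. The part of these cells in the member results was not tested.

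**Figure D2:**
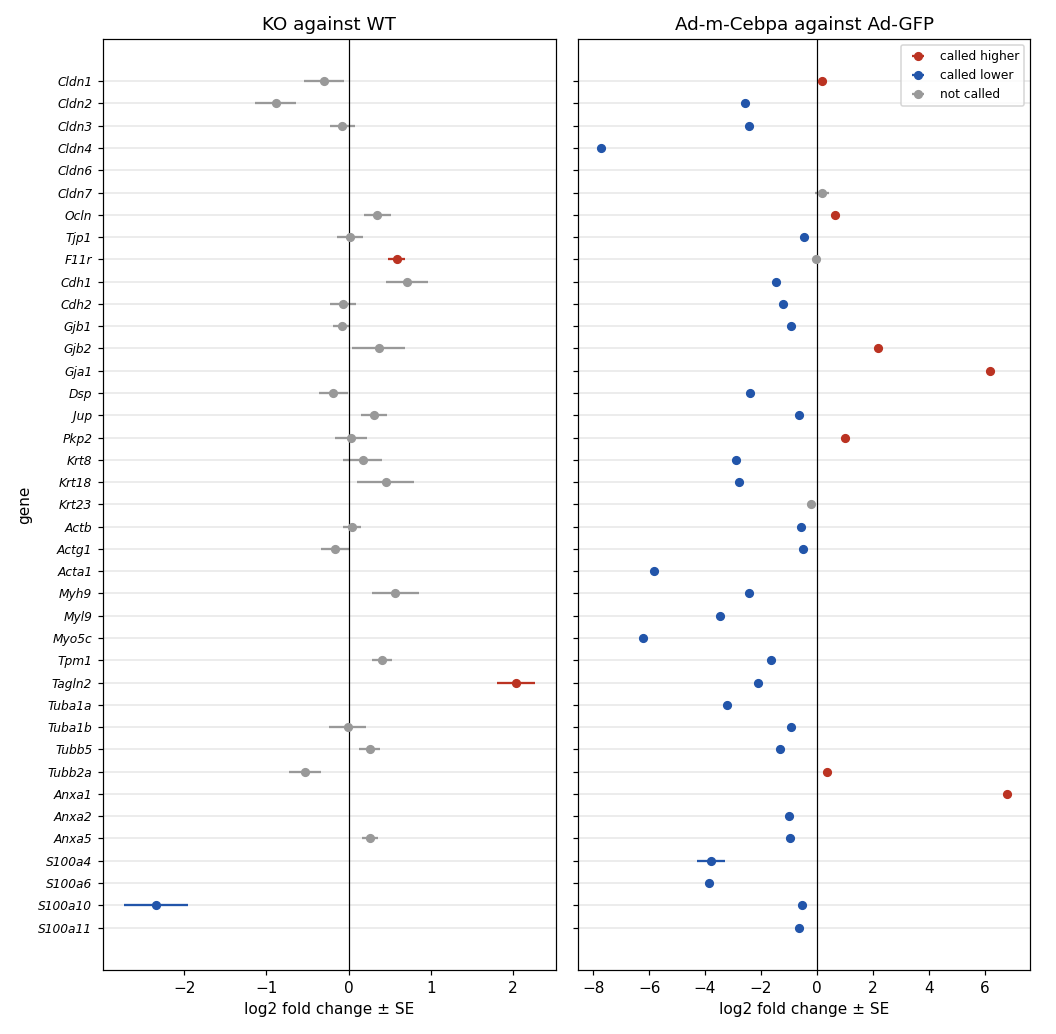
Log2 fold change with its SE for each tested member, KO against WT on the left (25 genes) and Ad-m-Cebpa against Ad-GFP on the right (38 genes), with genes called higher in red and called lower in blue. On the left 3 points are coloured, Tagln2, F11r and S100a10, and on the right 28 points are blue, 7 are red and 3 are grey; the horizontal scales differ.

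Ad-m-Cebpa was compared with Ad-GFP to find which members respond to added Cebpa in culture. Most of the list fell: 28 of the 38 tested members were called lower and 7 higher, and 18 of the 28 fell by more than 2-fold. All 8 actin, myosin and actin-binding genes, Krt8 with Krt18, and both cadherins were among those that fell. The genes that rose more than 2-fold were 2 connexins, Gjb2 and Gja1, the desmosome gene Pkp2 and Anxa1, an annexin. These counts stand beside a comparison in which most genes were called, with 42.4% of the 14892 genes tested called lower and 44.1% higher, 18.3% lower by more than 2-fold and 23.7% higher by more than 2-fold. The median log2 fold change of the tested members was -0.98 against 0.01 over all genes. 1 tested member, S100a4, was under 10 counts in every library of 1 of the groups, so that it entered the test through its higher group. Cldn6 was under the filter, and Cldn7, F11r and Krt23 did not pass.

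Among the tight junction genes, 4 fell, 2 rose and 2 did not pass. Cldn4 changed the most. Its values were 103, 123 and 107 CPM in Ad-GFP and 0.503, 0.486 and 0.599 CPM in Ad-m-Cebpa, a fall of 7.71 ± 0.11 on the log2 scale (adjusted p = 9.26e-17). Cldn3 fell by 2.43 ± 0.04 from a mean of 136 to 25.4 CPM, and Cldn2 by 2.57 ± 0.10 from 9.50 to 1.60 CPM. Tjp1, which encodes the scaffold ZO-1, fell by 0.45 ± 0.03, a difference that did not pass on the TPM scale, where it was -0.07 (adjusted p = 0.306). Ocln (occludin) rose from 22.2 ± 1.23 to 34.8 ± 0.31 CPM, a log2 fold change of 0.65 ± 0.05. Cldn1 rose by 0.19 ± 0.06 (adjusted p = 0.0107), which was lost without Ad-m-Cebpa replicate 1 (adjusted p = 0.0509) and in the fit of all 12 libraries (adjusted p = 0.407). F11r was at 135 to 137 CPM in Ad-GFP and 132 to 138 CPM in Ad-m-Cebpa. Its log2 difference was -0.02 ± 0.03, and it turned to a call of higher when the libraries were scaled by their totals (0.11).

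Both cadherins fell. Cdh2, which encodes N-cadherin, was at 163, 159 and 160 CPM in Ad-GFP and 70.1, 72.6 and 67.4 CPM in Ad-m-Cebpa, a fall of 1.203 ± 0.03 (adjusted p = 6.3e-14), and Cdh1 fell by 1.45 ± 0.04 from 80.0 to 29.3 CPM. Hepatocytes have both cadherins, and the ratio of Cdh2 to Cdh1 per transcript length was 2.15 to 2.26 in Ad-GFP and 2.51 to 2.60 in Ad-m-Cebpa. In WT it was 1.95 to 2.87, and in KO it was 2.74, 1.09 and 1.00.

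The 3 connexins moved apart. Gja1 (Cx43), the connexin of many proliferating and mesenchymal cells, was at 0.976, 1.26 and 1.17 CPM in Ad-GFP and 84.6, 85.0 and 80.1 CPM in Ad-m-Cebpa, a rise of 6.19 ± 0.07 (adjusted p = 1.24e-17). Gjb2 was at 43.1, 39.5 and 39.2 CPM in Ad-GFP and 184, 188 and 179 CPM in Ad-m-Cebpa, a rise of 2.18 ± 0.04 (adjusted p = 7.1e-16). Gjb1, the main connexin of hepatocytes, fell by 0.94 ± 0.09 from 13.1 ± 0.91 to 6.85 ± 0.96 CPM. The order of the connexins per transcript length therefore differed between groups. The Gjb2 to Gjb1 ratio was 0.332 to 0.417 (WT), 0.264 to 0.783 (KO), 1.82 to 2.01 (Ad-GFP) and 15.5 to 19.4 (Ad-m-Cebpa), with no overlap between the virus-treated groups.

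The 3 desmosome genes also split. Dsp, which encodes desmoplakin, the link from the desmosome to keratin, was at 297, 294 and 312 CPM in Ad-GFP and 56.3, 61.7 and 55.4 CPM in Ad-m-Cebpa, a fall of 2.38 ± 0.04 (adjusted p = 7.59e-16). Jup fell by 0.64 ± 0.04. Pkp2 (plakophilin 2), which binds desmoplakin to the plaque, rose by 1.01 ± 0.03, from 54.0 to 109 CPM. The summed TPM of the 3 was 203 to 214 in Ad-GFP and 197 to 207 in Ad-m-Cebpa, so the groups overlapped.

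Krt8 and Krt18 fell together. Krt18 was at 1238, 1263 and 1265 CPM in Ad-GFP and 184, 189 and 176 CPM in Ad-m-Cebpa, a fall of 2.78 ± 0.04 (adjusted p = 6.38e-17), and Krt8 fell by 2.90 ± 0.04 from 2059 to 276 CPM. Their ratio per transcript length stayed between 0.826 and 0.958 in 11 of the 12 libraries, although the summed TPM of the keratins was 204 in WT and 5013 in Ad-GFP. The exception was KO replicate 2, at 1.22. Krt23, a keratin of stressed liver and bile duct, was at 6.26 to 7.74 CPM in Ad-GFP and 5.03 to 6.52 CPM in Ad-m-Cebpa (-0.22 ± 0.11, adjusted p = 0.0808). It passed only without Ad-GFP replicate 1 (adjusted p = 0.0302). Of the 15 other intermediate filament genes 12 were tested, 11 fell and 1 rose. Those with the lowest p were Lmna, a nuclear lamin, which fell by 1.86 ± 0.04 from 247 to 68.1 CPM, and Nes (nestin), which fell by 2.89 ± 0.11 from 10.5 to 1.41 CPM. The bile duct keratins Krt7 and Krt19 were at means of 0.572 and 1.99 CPM in Ad-GFP and 0.0479 and 0.295 CPM in Ad-m-Cebpa.

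**Figure D3:**
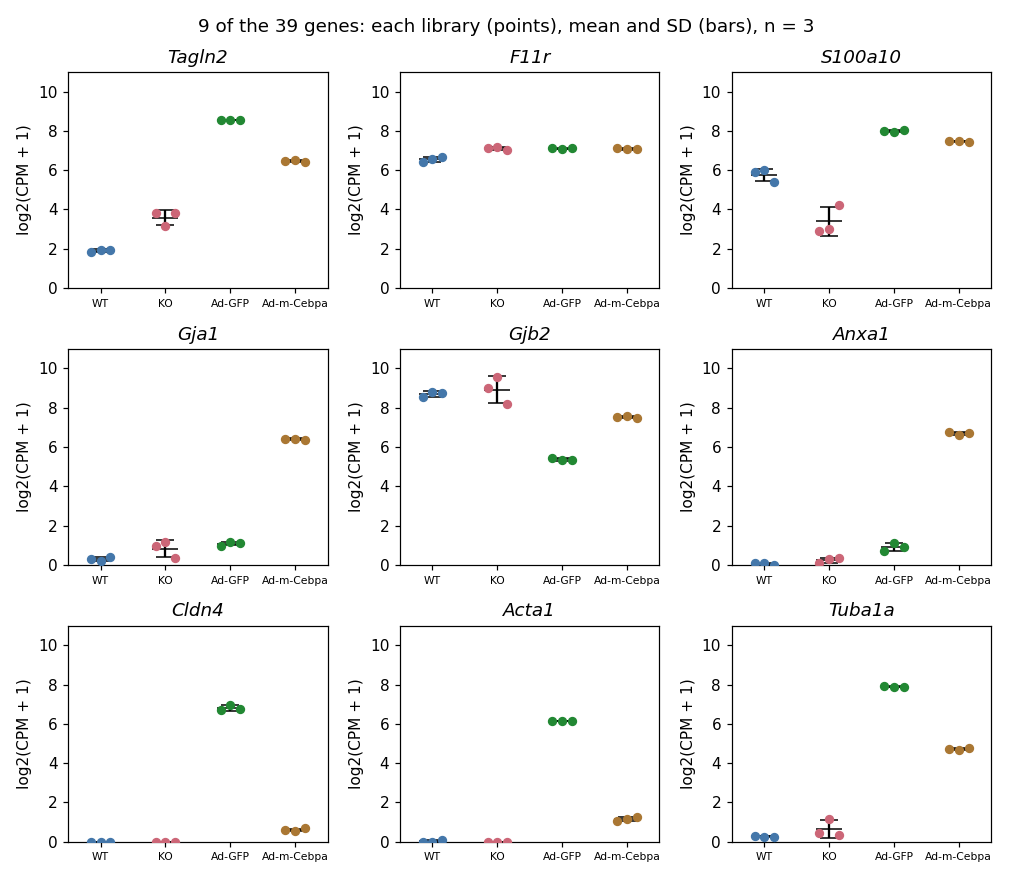
Level of 9 members in each library as log2(CPM + 1), with a point for each library and bars for the mean and SD of the 3 libraries of a group. Tagln2 is higher in KO than in WT and S100a10 lower, Gja1 and Anxa1 stand apart in Ad-m-Cebpa, and Cldn4, Acta1 and Tuba1a are high in Ad-GFP, lower in Ad-m-Cebpa and near 0 in WT and KO.

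All 8 actin, myosin and actin-binding genes fell. Acta1, the alpha-actin of skeletal muscle, was at 68.6, 70.3 and 69.7 CPM in Ad-GFP and 1.11, 1.23 and 1.38 CPM in Ad-m-Cebpa, a fall of 5.81 ± 0.07 (adjusted p = 1.07e-17). Myo5c, a class V myosin of secretory epithelia, fell by 6.22 ± 0.09 from 41.7 ± 1.18 to 0.557 ± 0.087 CPM. Myl9, a regulatory myosin light chain, fell by 3.46 ± 0.11 from 14.8 to 1.35 CPM. The falls were smaller in the abundant genes. Myh9 fell by 2.44 ± 0.05 and Tpm1 (tropomyosin 1) by 1.63 ± 0.03. Actb fell by 0.55 ± 0.03 and Actg1 by 0.51 ± 0.03.

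Tagln2 was at 379, 373 and 368 CPM in Ad-GFP and 86.1, 89.9 and 83.4 CPM in Ad-m-Cebpa, a fall of 2.11 ± 0.03 (adjusted p = 2.98e-16). It was the 1 member called more than 2-fold in opposite directions, higher with Cebpa deleted and lower with Cebpa added. A fall of more than 2-fold with added Cebpa was common, at 18.3% of all genes tested and 18 of 38 tested members. Opposite calls were not counted over all genes. The difference between the comparisons was not tested. Tagln2 ranged from 2.59 to 13.1 CPM in WT and KO and from 83.4 to 379 CPM in the virus-treated groups, so the level it had in KO was below that of either of them.

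Beside the actin genes, the markers of muscle and of fibroblasts were low. Of the 7 skeletal and smooth muscle markers 1 was tested, Cnn1, a smooth muscle actin-binding gene, which fell from 7.22 to 0.370 CPM. Tnnt3, a skeletal muscle gene, was at 0 in all 12 libraries, and Ckm, Myh1, Myh4 and Myl1 had means of at most 0.0367 CPM in any group. The 11 stellate cell and fibroblast markers summed to 18.0 to 18.8 CPM in Ad-GFP and 27.1 to 27.6 in Ad-m-Cebpa. Among them Acta2 and Tagln fell, from 2.39 to 0.755 and from 9.85 to 0.806 CPM, and Dcn, Reln and Col3a1 rose. Of 59 other actin cytoskeleton genes 58 were tested, 46 fell and 9 rose, with a median of -0.90. Tmsb4x (thymosin beta 4), which binds actin monomers, fell by 2.72 ± 0.03 from 118 to 17.9 CPM, and Pfn2 (profilin 2) rose by 4.0 ± 0.06 from a mean of 3.996 to 64.2 CPM.

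The promoters of the members, whichever way they moved, were read from RefSeq (GRCm38.p6), which held 34 of the 39, in a window of 250 bases before to 50 after the start. The CArG box, the site of serum response factor, which is known to drive actin genes, had a match on either strand in 4 of the 34, Acta1, Myl9, Actg1 and Anxa5, or 11.8%, against 1.81% of all 27025 genes of the table. Each of these 4 genes fell with added Cebpa and was higher in Ad-GFP than in WT. Most of the list did the same with or without a box, since 28 of 38 tested members fell and 29 of 38 were higher in Ad-GFP. The stretches from 250 to 51 bases before the start are shown for the 3 with the match before the start, with the box in capitals, at 73, 161 and 90 bases before the start. They lie at chr8:123894826-123895025 on the minus strand (Acta1), chr2:156775214-156775413 on the plus strand (Myl9) and chr11:120348546-120348745 on the minus strand (Actg1). The stretch of Acta1 lies in an intron of Gm20388 on the opposite strand, and that of Actg1 overlaps the first exon of the noncoding 0610009L18Rik.
Acta1: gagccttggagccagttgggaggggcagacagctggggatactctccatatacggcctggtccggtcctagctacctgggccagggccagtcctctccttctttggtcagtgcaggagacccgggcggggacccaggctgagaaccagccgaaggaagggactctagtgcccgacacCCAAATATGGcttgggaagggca
Myl9: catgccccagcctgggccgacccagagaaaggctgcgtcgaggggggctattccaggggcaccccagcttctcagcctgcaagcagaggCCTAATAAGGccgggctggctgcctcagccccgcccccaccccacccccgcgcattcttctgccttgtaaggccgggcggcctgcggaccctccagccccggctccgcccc
Actg1: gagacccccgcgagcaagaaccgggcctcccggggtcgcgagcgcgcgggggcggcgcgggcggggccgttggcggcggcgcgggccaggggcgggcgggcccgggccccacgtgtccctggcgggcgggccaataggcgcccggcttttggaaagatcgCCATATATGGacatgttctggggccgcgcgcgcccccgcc

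The AP-1 type site TGACTCA matched 5 of the 34 members (14.7%), Anxa2, Cldn4, F11r, Gja1 and S100a11, against 5.95% of genes. Cldn4 held it 2 times, at 240 and 158 bases before the start, in chr5:134946985-134947184 on the minus strand, where both are in capitals. The C/EBP type site TTGCNNAA matched 2 members (5.88%), Anxa1 and Krt23, against 12.2% of genes. The Anxa1 match, which reads as the reverse complement, is shown with 10 bases on each side from chr19:20390797-20390824 on the minus strand, inside an annotated first exon of Anxa1. The TEAD type site GGAATG matched 9 members (26.5%) against 16.6% of genes: Acta1, Anxa1, Cldn2, Cldn6, Cldn7, Gjb1, Tagln2, Tpm1 and Tubb5. Both strands were searched for each motif, and the matches shown overlapped no other of the 4 motifs. A match is a stretch of letters, and binding was not measured.
Cldn4: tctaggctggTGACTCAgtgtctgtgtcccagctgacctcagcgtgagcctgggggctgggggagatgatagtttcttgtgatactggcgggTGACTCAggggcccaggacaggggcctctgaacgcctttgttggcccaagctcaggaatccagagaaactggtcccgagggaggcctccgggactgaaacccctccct
Anxa1: ccgggagtagTTTTGCAAgacttgtttc

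Of the 4 tubulins, 3 fell and 1 rose. Tuba1a, an alpha-tubulin best known from the developing brain, was at 240, 234 and 236 CPM in Ad-GFP and 25.8, 24.8 and 26.3 CPM in Ad-m-Cebpa, a fall of 3.21 ± 0.03 (adjusted p = 5.9e-18). Its close neighbour Tuba1b, 15.3 kb away on chromosome 15, fell by 0.94 ± 0.04, and the ratio of Tuba1a to Tuba1b per transcript length went from 0.276 to 0.298 in Ad-GFP to between 0.0559 and 0.0613 in Ad-m-Cebpa. In WT it was 0.00304 to 0.00369. The beta-tubulins moved in opposite directions, with Tubb5 falling by 1.32 ± 0.04 and Tubb2a rising by 0.34 ± 0.03. Of 21 other tubulin and microtubule genes 19 were tested, 11 fell and 6 rose. Stmn1 (stathmin), which destabilises microtubules, fell by 2.66 ± 0.04 from 134 to 21.2 CPM, and Map7, a microtubule-binding gene, rose by 1.56 ± 0.03 from 27.2 to 80.5 CPM.

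Of the annexin and S100 genes, 6 fell and 1 rose. S100a6 (calcyclin) was at 140, 132 and 130 CPM in Ad-GFP and 8.58, 9.03 and 9.98 CPM in Ad-m-Cebpa, a fall of 3.87 ± 0.05 (adjusted p = 3.03e-17). S100a4, next to it on chromosome 3 with a gap of 6.84 kb, fell by 3.79 ± 0.50 from 0.693 to 0.0467 CPM, on 67 and 5 counts. S100a10 and S100a11, 28.8 kb apart on the same chromosome, fell by 0.53 ± 0.03 and 0.64 ± 0.04, and the S100a10 call was lost in the fit of all 12 libraries (adjusted p = 0.0931). Anxa2 fell by 0.98 ± 0.04 and Anxa5 by 0.98 ± 0.03. Against these, Anxa1, which is known to dampen inflammation, rose from a mean of 0.911 ± 0.269 to 103 ± 6.02 CPM, a log2 fold change of 6.81 ± 0.09. Of 22 other annexin and S100 genes 15 were tested, 10 fell and 4 rose. S100a9, a subunit of calprotectin, was at 0 in all Ad-GFP libraries and at 231 ± 21.3 CPM in Ad-m-Cebpa, and Anxa3 fell by 1.62 ± 0.03 from 191 to 62.0 CPM. The 7 neutrophil markers summed to 725 to 758 CPM in Ad-GFP and 698 to 789 CPM in Ad-m-Cebpa, most of it Lcn2 in Ad-GFP. The 6 without Lcn2 summed to at most 0.126 CPM in Ad-GFP and to 335 to 399 CPM in Ad-m-Cebpa. S100a8 and S100a9 made up nearly all of the latter sum, and Csf3r, Mpo and Retnlg were at means of 0.0088, 0 and 0.0184 CPM in Ad-m-Cebpa.

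Of 27 other tight junction genes 23 were tested, 9 fell and 9 rose, and those with the lowest p, Cgn (cingulin) and Lsr, a gene of tricellular junctions, fell by 3.14 ± 0.04 and 1.81 ± 0.03. Of 16 other adherens junction genes 15 were tested, 9 fell and 5 rose, with Nectin3 rising by 2.89 ± 0.04 and Ajuba falling by 1.22 ± 0.03. Of 12 other desmosome and hemidesmosome genes 11 were tested, 7 fell and 3 rose, with Plec (plectin) falling by 1.58 ± 0.04 and Dsc2 (desmocollin 2) rising by 1.04 ± 0.03. Of 24 regulators of epithelial and actin genes 22 were tested, 15 rose, Cebpa among them, and 6 fell. Hnf4a, a master regulator of hepatocyte and epithelial genes, fell by 2.27 ± 0.04 from 284 to 59.0 CPM.

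In KO against WT the 9 lists of other pathway genes held few calls, as did all genes tested, of which 0.692% were called higher and 1.02% lower. Cldn14 fell by 5.62 ± 0.50 (adjusted p = 0.00428), from 6.40 ± 1.04 to 0.116 ± 0.103 CPM, and was the only edgeR call among 20 other tight junction genes tested. Dsg1c, a desmoglein, rose by 1.35 ± 0.14 (adjusted p = 0.00837), from 8.67 ± 1.38 to 21.9 ± 0.61 CPM, and was the only call by edgeR and by DESeq2 among 9 other desmosome and hemidesmosome genes tested. Cebpa was the only edgeR call among the 13 regulators tested, and DESeq2 called Elf3 and Klf6 as well. Elf3, an epithelial transcription factor with the next lowest p there, had a mean of 1.45 CPM in WT, against 49.5 ± 40.1 CPM in KO (5.11 ± 1.04, adjusted p = 0.071). edgeR called none of the other adherens junction genes (13 tested, 1 at an unadjusted p under 0.05), intermediate filament genes (4 and 0), actin cytoskeleton genes (48 and 5), tubulin and microtubule genes (14 and 2) and annexin and S100 genes (8 and 0), and no other gap junction gene was tested. DESeq2 called Vcl and Map4 in these lists, and limma on log2(TPM + 1) called none. The genes with the lowest p in them were Vcl (vinculin; -0.44 ± 0.09, adjusted p = 0.069) and Ajuba (0.68 ± 0.29), the lamins Lmnb2 (0.26 ± 0.12) and Lmna (0.16 ± 0.11), Tpm2 (-1.06 ± 0.40) and Lasp1 (0.40 ± 0.15), Map4 (0.47 ± 0.11) and Mapre2 (0.38 ± 0.14), and S100a13 (-0.44 ± 0.20) and S100a16 (-0.30 ± 0.17). The second genes of the lists with 1 call were Pard6b (0.50 ± 0.11) and Ppl (-1.03 ± 0.47), which did not pass in edgeR; DESeq2 called Pard6b.

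**Figure D4:**
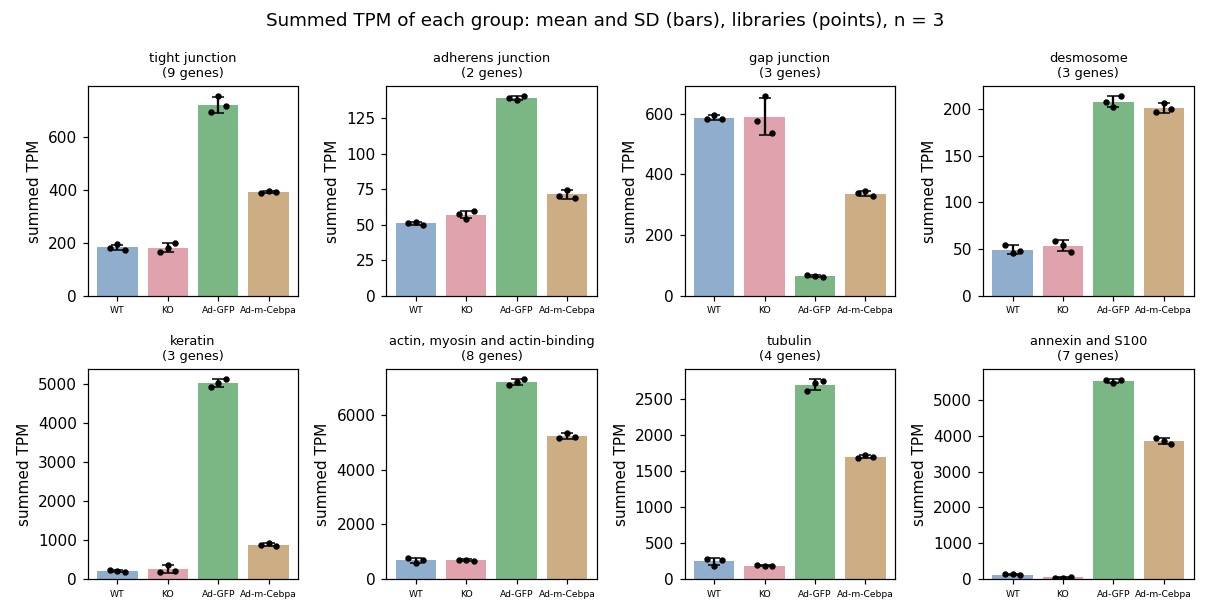
Summed TPM of each of the 8 groups of members, with bars for the mean and SD of 3 libraries and a point for each library. The tight junction, adherens junction, keratin, actin, tubulin and annexin and S100 sums are highest in Ad-GFP and intermediate in Ad-m-Cebpa. The desmosome sums of the virus-treated groups overlap, and the gap junction sum is lowest in Ad-GFP.

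The 2 control groups, Ad-GFP and WT, differed more in these genes than KO and WT did. All 3 keratins, 8 actin, myosin and actin-binding genes and 7 annexin and S100 genes were called higher in Ad-GFP, as were 3 of the 4 tubulins, and the hepatocyte connexins Gjb1 and Gjb2, Cldn1 and Cldn2 were called lower. Of 38 members tested, 29 were called higher and 6 lower, and 26 were higher and 4 lower by more than 2-fold. Over the 13757 genes tested the shares were 44.9% higher and 38.4% lower, and 27.6% and 22.6% by more than 2-fold. 12 of the 38 members were under 10 counts in every WT library and entered the test through Ad-GFP alone, so these counts are no more than a description. The labels give no strain and no duration of virus exposure. Any difference in strain, time in culture or sequencing run cannot be told apart from the virus here. WT is also the control of KO, and Ad-GFP that of Ad-m-Cebpa, so the comparison shares libraries with both others.

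The scaling matters in this comparison. With library totals in place of TMM, the median log2 difference over all genes was 1.37 rather than 0.13, a shift of 1.24, and the split of calls went from 6183 higher and 5284 lower to 10410 and 2073. Cldn1, Cldn2, Gjb1 and Gjb2 kept a lower call under every alternative, and Ocln and Tubb2a, called lower, turned to higher with library totals and on the TPM scale.

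The differences in the keratin, actin and annexin groups were larger than that shift. Krt8 and Krt18 were higher by 3.17 ± 0.11 and 3.18 ± 0.10, Actg1 by 2.67 ± 0.12, Tubb5 by 3.51 ± 0.07, Tuba1b by 3.81 ± 0.08, Tpm1 by 3.80 ± 0.07 and Anxa5 by 3.96 ± 0.09, all on the log2 scale with TMM scaling. Tagln2 was higher by 7.06 ± 0.08, Anxa2 by 9.10 ± 0.13 and Tuba1a by 10.1 ± 0.10. Anxa2 and Tuba1a had 23 and 9 counts over the WT libraries, so their SEs are too narrow. Actb and Myh9, at 1.51 ± 0.08 and 1.85 ± 0.10, were closer to it.

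Against WT libraries at 0, Cldn4 was at least 1608-fold higher in Ad-GFP, S100a6 at least 1934-fold, Myl9 at least 213.8-fold and S100a4 at least 10.1-fold, taking 3 counts over the WT group. Acta1 and Myo5c had 1 count each in WT, and their ratios of 3016 (95% counting interval 541 to 119100) and 1809 (324.5 to 71480) are correspondingly loose. Acta1 overlaps Gm20388 on the opposite strand, which was at 9.21 CPM in WT and 13.8 CPM in Ad-GFP.

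Among the genes that were lower in Ad-GFP, Gjb1 was at 642 to 726 CPM in WT and 12.1 to 13.8 CPM in Ad-GFP, lower by 5.72 ± 0.09, and Gjb2 was lower by 3.36 ± 0.09. Cldn2 was lower by 2.70 ± 0.10 and Cldn1 by 1.90 ± 0.12. Cdh1, Cdh2 and Pkp2 did not pass, at 0.11 ± 0.13, -0.03 ± 0.05 and 0.08 ± 0.07, and each was called higher with library totals. Cdh1 was also called higher without WT replicate 2 (adjusted p = 0.00595). Neighbouring genes could differ widely. Cldn3 and Cldn4 lie 39.3 kb apart on chromosome 5 and differed from WT by 0.55 ± 0.09 and by at least the 1608-fold above, whereas Krt8 and Krt18, 23.7 kb apart on chromosome 15, differed by nearly the same amount.

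Set side by side, the sums of the groups of members moved by different amounts with added Cebpa. The keratins summed to 180 to 223 TPM in WT, 4914 to 5110 in Ad-GFP and 844 to 908 in Ad-m-Cebpa. The actin, myosin and actin-binding genes summed to 595 to 764, 7130 to 7320 and 5183 to 5357 TPM, and the annexin and S100 genes to 96.01 to 128, 5479 to 5561 and 3779 to 3939 TPM. The gap junction sum took the opposite course, at 582 to 596, 62.3 to 68.1 and 329 to 344 TPM, and the Ad-m-Cebpa value there was mostly Gjb2, at 237 ± 4.82 TPM. In each of these sums the Ad-m-Cebpa libraries lay between the WT and the Ad-GFP libraries. The tight junction, adherens junction and tubulin sums did the same, while the desmosome sums of the virus-treated groups overlapped. TPM is not TMM-scaled, so differences of these sums from WT carry the all-gene shift of that scale.

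**Figure D5:**
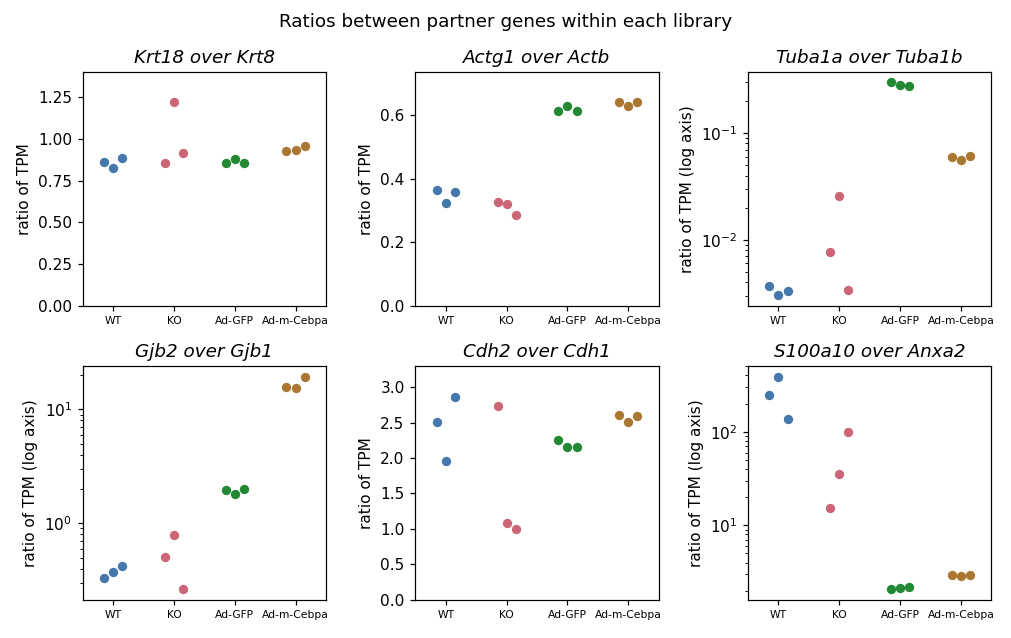
Ratio of the TPM of 6 pairs of partner genes in each library, on a log axis where marked. Krt18 over Krt8 is near 0.9 in 11 libraries and 1.22 in KO replicate 2, Actg1 over Actb is 0.285 to 0.365 in WT and KO and 0.613 to 0.641 in the virus-treated groups, and Gjb2 over Gjb1 is highest in Ad-m-Cebpa, at 15.5 to 19.4.

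Ratios within a library do not depend on scaling. Actg1 over Actb, the pair of cytoplasmic actins, was 0.323 to 0.365 (WT), 0.285 to 0.326 (KO), 0.613 to 0.630 (Ad-GFP) and 0.630 to 0.641 (Ad-m-Cebpa). WT and KO overlapped, and the virus-treated groups, which nearly overlapped each other, lay well above both. S100a10 over Anxa2 was 2.07 to 2.21 in Ad-GFP and 2.88 to 2.98 in Ad-m-Cebpa, where Anxa2 was abundant. For Krt8, Actb, Actg1, Tuba1a, Tuba1b, Tubb2a, Myh9, Acta1 and S100a11 some deposited counts were not whole numbers, so reads shared with near-identical copies had been divided between genes, and small differences in these members are uncertain.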

How the data were processed

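RNA-Seq libraries of primary mouse hepatocytes (12, in 4 groups of 3) were analysed from the deposited tables. Per the labels, poly(A) RNA was made into stranded libraries, and the authors used Trimmomatic 0.36, STAR 2.5.1, RSEM 1.2.22 and Picard 1.84 on build mm10. The strand setting of the counting is not given in the sources used here. The deposited tables hold RSEM expected counts, which are estimated counts not scaled to depth, and TPM, which the authors' RSEM run scaled for length. FPKM was deposited by the authors too and was not used.

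Counts were rounded and tested in edgeR 4.0.16 (R 4.3.3) on the 6 libraries of each of 3 comparisons, with filterByExpr (minimum count 10, minimum total 15), TMM scaling, the quasi-likelihood test and Benjamini-Hochberg adjustment over all genes tested, with calls at an adjusted p under 0.05. Log2 fold changes carry an SE, taken as the size of the log2 fold change over the square root of the F statistic of the test. It is approximate, and too narrow for large folds that rest on few counts in 1 group. Acta1 in Ad-GFP against WT, on 1 WT count, had an SE of 0.206 beside a counting interval of 541 to 119100 for its ratio. Printed CPM values were TMM-scaled over the 12 libraries together. Ratios and sums of TPM have no test. Folds against a group at 0 used 3 counts, and counting intervals are exact 95% intervals. Both cover counting error only. The script was tested on simulated data.

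Named genes were, in each of the 8 groups of members, the one with the lowest p in KO against WT and in Ad-m-Cebpa against Ad-GFP, members called over 2-fold in KO against WT or over 2-fold in opposite directions, and, of each of 9 lists of other pathway genes, the 2 with the lowest p in each comparison. The result of 1 list in Ad-m-Cebpa against Ad-GFP is not reported here. Promoters to print and further member values were chosen after values were seen. Members and lists were chosen with earlier results of these data known. Alternative analyses used DESeq2 1.42.0, RLE size factors or library totals, no filter or a stricter one (at least 1 CPM in 3 libraries, mean 5 CPM), limma 3.58.1 on log2(TPM + 1) or log2(TPM + 0.1) for genes whose TPM averaged 1 or more, 1 model over the 12 libraries, the replicate number as a block, and 1 library removed at a time.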

Additional observations from a re-analysis of the deposited data

How the results depend on the processing

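In KO against WT, members called higher numbered 2, and 1 with library totals, with limma on either pseudocount and with the replicate block, 3 in the fit of all 12 libraries, 0 with the stricter filter, and 0 to 2 when 1 library was left out. Members called lower numbered 1, and 2 with DESeq2, 3 in the fit of all 12 libraries, 0 with the stricter filter and with the replicate block, and 0 to 1 when 1 library was left out. All genes called numbered 203, and 623 with DESeq2, 1205 in the fit of all 12, 91 with the stricter filter, 112 and 103 with limma, 87 with the block, 42 to 60 without a WT library and 91 to 398 without a KO library. In Ad-m-Cebpa against Ad-GFP the calls stayed at 6 to 8 higher and 27 to 29 lower, and in Ad-GFP against WT at 25 to 34 and 4 to 6. With library totals and with limma on log2(TPM + 1) and log2(TPM + 0.1), log2 differences turned sign for F11r in Ad-m-Cebpa against Ad-GFP (0.11, 0.245 and 0.246), and in Ad-GFP against WT for Ocln (0.91, 1.14 and 1.23), Cdh2 (1.21, 1.39 and 1.41) and Tubb2a (0.43, 0.66 and 0.66). These settings moved the all-gene median by 1.24, 1.2 and 1.39 in Ad-GFP against WT, and by 0.132, 0.262 and 0.290 in Ad-m-Cebpa against Ad-GFP, where limma called 7100 genes higher and 4093 lower against 6562 and 6319. Same-numbered libraries did not deviate together (correlations of -0.39 to 0.087, none over 0.1), but with 3 libraries per group this cannot exclude pairing. The block changed no member's call outside KO against WT. There F11r and S100a10 lost theirs (adjusted p = 0.178 and 0.123 in edgeR with the block). In the fits without 1 library, a group of 2 gave the spread together with the other group. The cause of these changes was not tested. Depth (20160081 counts in the smallest library) limits members under 1 CPM, and 14 of 39 in KO and WT were not tested.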
